A study of Mus musculus with 6 samples.

Results

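The genes described here are 6 members of the chemokine system that draws neutrophils into tissue: the CXC chemokine ligand genes Cxcl1, Cxcl2, Cxcl3, Cxcl5 and Ppbp, and Cxcr2, the gene of their shared receptor. They were taken by symbol from a table of 55487 genes, all 6 were found once, and all 6 were among the 18259 genes with enough counts to be tested. RNA was sequenced from whole dorsal skin of mice on day 2, from 3 samples of skin treated with DPCP (diphenylcyclopropenone, a contact sensitizer) and 3 samples of control skin. The title places the work in contact hypersensitivity and hair regeneration, and the comparison asks how expression in DPCP skin differed from control skin at that day. Strain, genotype, age, sex and the treatment of control skin are not in the labels. They also leave unsaid if each sample is an animal of its own, so a p-value here weighs differences against sample-to-sample spread that could partly be technical.

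Chemokines are small secreted proteins that guide cells along concentration gradients. The ligands of Cxcr2 carry a glutamate-leucine-arginine motif ahead of the CXC cysteines, and in skin they are made by keratinocytes, fibroblasts, macrophages and neutrophils after signals such as interleukin-1, TNF and interleukin-17, largely through NF-kB. Ppbp encodes the platelet basic protein, which proteases trim into the active chemokine Cxcl7. Cxcr2 is a receptor coupled to inhibitory G proteins and is best known from neutrophils, in which it drives movement toward the ligand.

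The 5 ligand genes lie on the plus strand of chromosome 5 (GRCm38) within 147 kb, between positions 90759360 and 90905938. From left to right they are Cxcl5, Ppbp, Cxcl3, Cxcl1 and Cxcl2. Cxcr2 lies on the plus strand of chromosome 1, from 74153989 to 74161246. The promoters of Cxcl1, Cxcl2 and Cxcl3 are shown because they hold the same 11-base run, and those of Ppbp and Cxcr2 because they do not; 5 of the 6 genes were matched in the RefSeq table of build GRCm38.p6. Each sequence runs from 250 bases before the annotated start to 50 bases after its first base, 5′ to 3′ on the plus strand. Capitals mark matches to the NF-kB (kappaB) motif and to the TATA box.
Cxcl1 promoter, chr5:90890995-90891294: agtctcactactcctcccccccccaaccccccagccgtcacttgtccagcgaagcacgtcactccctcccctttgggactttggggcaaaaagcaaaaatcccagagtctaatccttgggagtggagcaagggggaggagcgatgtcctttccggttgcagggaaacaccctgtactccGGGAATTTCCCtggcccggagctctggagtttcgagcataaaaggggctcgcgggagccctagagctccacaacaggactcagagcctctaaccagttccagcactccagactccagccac
Cxcl2 promoter, chr5:90903649-90903948: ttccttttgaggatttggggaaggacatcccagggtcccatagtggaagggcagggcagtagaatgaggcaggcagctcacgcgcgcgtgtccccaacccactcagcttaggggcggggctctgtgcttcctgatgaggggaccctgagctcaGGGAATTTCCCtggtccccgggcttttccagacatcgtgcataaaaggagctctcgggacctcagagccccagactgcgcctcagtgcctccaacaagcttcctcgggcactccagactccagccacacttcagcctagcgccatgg
Cxcl3 promoter, chr5:90785851-90786150: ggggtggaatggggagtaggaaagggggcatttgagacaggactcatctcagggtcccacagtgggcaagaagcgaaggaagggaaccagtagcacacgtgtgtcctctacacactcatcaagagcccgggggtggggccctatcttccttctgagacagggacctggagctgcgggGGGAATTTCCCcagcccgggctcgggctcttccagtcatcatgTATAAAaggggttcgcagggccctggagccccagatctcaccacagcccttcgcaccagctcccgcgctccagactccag
Ppbp promoter, chr5:90768268-90768567: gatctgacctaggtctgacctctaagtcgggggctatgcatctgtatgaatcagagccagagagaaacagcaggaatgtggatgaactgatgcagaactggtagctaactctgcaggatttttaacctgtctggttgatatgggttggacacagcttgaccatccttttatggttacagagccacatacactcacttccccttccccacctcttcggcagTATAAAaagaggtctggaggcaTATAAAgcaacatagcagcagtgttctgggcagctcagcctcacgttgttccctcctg
Cxcr2 promoter, chr1:74153744-74154043: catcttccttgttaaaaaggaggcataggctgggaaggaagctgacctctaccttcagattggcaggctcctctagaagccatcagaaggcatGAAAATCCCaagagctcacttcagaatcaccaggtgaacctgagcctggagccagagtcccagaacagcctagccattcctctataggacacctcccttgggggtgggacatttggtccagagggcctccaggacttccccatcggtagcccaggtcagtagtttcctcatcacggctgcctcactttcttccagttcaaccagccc

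All 6 genes rose in DPCP skin. Their log2 fold changes ran between 3.41 for Cxcr2 and 9.12 for Cxcl5, each past an adjusted p of 0.05 in edgeR's quasi-likelihood test with Benjamini-Hochberg adjustment over all tested genes. Of all tested genes 46.1% were called, 22.8% higher and 23.3% lower, so a call by itself was common in this comparison. A call higher with a log2 fold change of at least 3 was made for 1.46% of the tested genes, and all 6 were among them. For all 6 the DPCP libraries lay above the control libraries without overlap, as they did for 28.6% of all tested genes; counting either direction, 58.0% did not overlap. The median log2 fold change was 6.66 over the 6 genes and −0.01 over all tested genes. Cxcl2, Cxcl3, Cxcl5 and Ppbp passed the count filter only through their DPCP libraries, as did some of the neutrophil markers below. A gene so low in control skin is tested only if it is high in DPCP skin. The shares over all tested genes are therefore a loose reference for these genes.

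**Figure D1:**
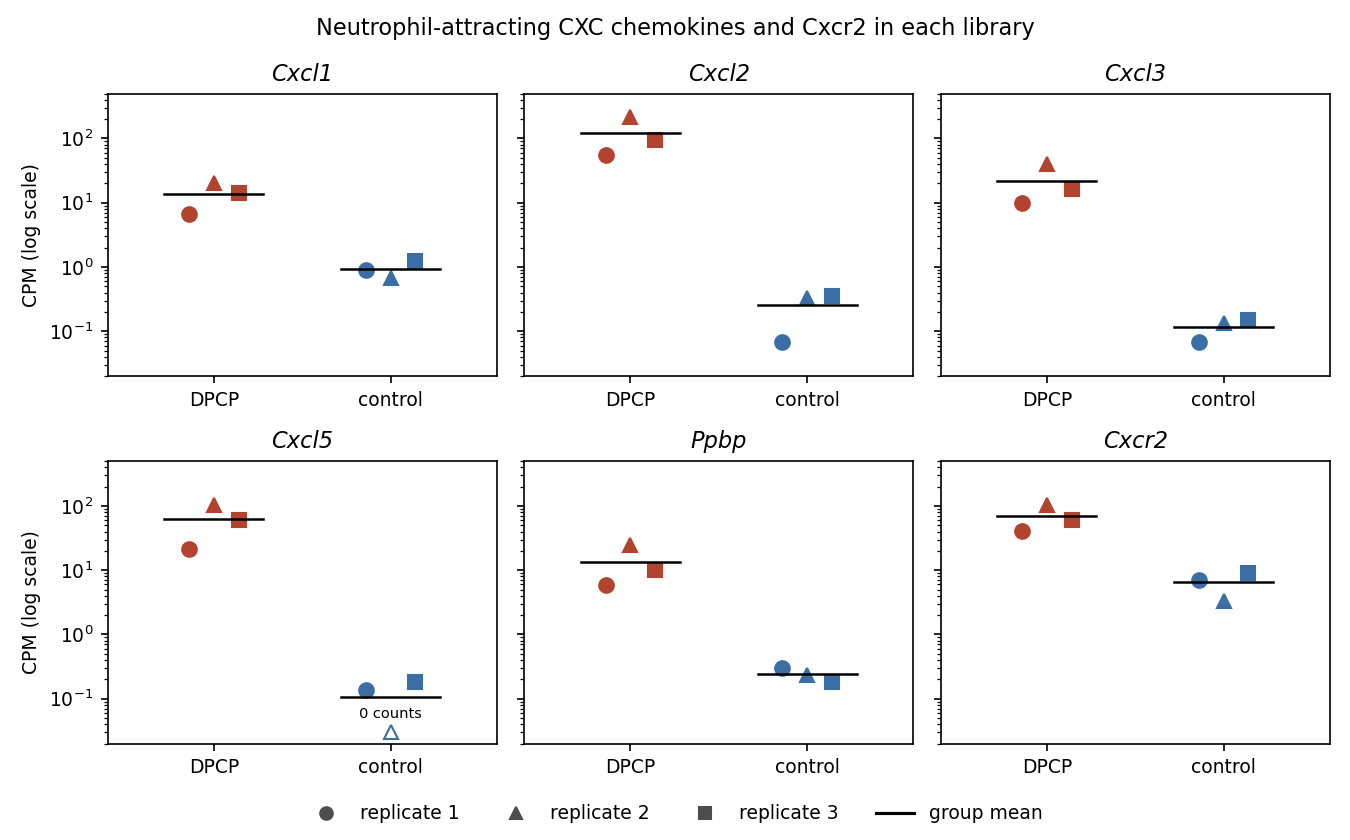
Level of each gene in each library, in CPM on a log axis; each point is 1 library, bars are group means, and the open triangle is the control library with 0 counts of Cxcl5. In every panel the 3 DPCP libraries lie above the 3 control libraries, and DPCP replicate 2 is the highest.

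Cxcl2, the ligand also known as MIP-2, had the highest read counts of the 5 ligands in DPCP skin. It had 1928, 7879 and 2950 counts in DPCP replicates 1, 2 and 3, against 2, 10 and 12 counts in control replicates 1, 2 and 3. As CPM (a gene's share of its library, with library totals corrected by TMM factors) it was at 55.6, 215 and 94.9 in DPCP skin, and at 0.0678, 0.333 and 0.359 in control skin. The lowest DPCP library was 155 times the highest control library. Its log2 fold change was 8.87 ± 0.71 (SE, n = 3 each; edgeR adjusted p = 4.32e-05), the 11th largest of the 18259 tested genes. Without DPCP replicate 2 it was 8.17.

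Cxcl5, the ligand known in mice as LIX, was nearly undetected in control skin. It had 753, 3773 and 1893 counts in DPCP replicates 1 to 3, against 4, 0 and 6 counts in control replicates 1 to 3. This corresponded to 21.7, 103 and 60.9 CPM in DPCP skin and to 0.136, 0 and 0.179 CPM in control skin. The 0 in control replicate 2 allows a level of up to 0.104 CPM (3 counts of the library total, counting error only, each count taken as independent). The log2 fold change was 9.12 ± 0.84 (SE, n = 3 each; edgeR adjusted p = 8.60e-05), the 9th largest of all tested genes. With so few control counts its size depended on the setting, at 8.52 with a prior count of 2 and 9.77 without control replicate 3.

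Cxcl3, a close relative of Cxcl2, had 347, 1455 and 503 counts in DPCP replicates 1 to 3, and 2, 4 and 5 counts in control replicates 1 to 3. Its level was 10, 39.8 and 16.2 CPM in DPCP skin, against 0.0678, 0.133 and 0.149 CPM in control skin. The groups were apart by 67 times, taking the lowest DPCP against the highest control library. The log2 fold change was 7.50 ± 0.71 (SE, n = 3 each; edgeR adjusted p = 9.81e-05), and 6.74 without DPCP replicate 2. Cxcl2 and Cxcl3 are alike in sequence: 2.78% of the 75-base stretches of Cxcl3 transcripts also occur in Cxcl2 transcripts, and 0.216% of the 150-base stretches, the stated read length. Reads of such stretches cannot be placed, so a small part of either gene's reads could have been lost or misplaced.

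Ppbp, the platelet basic protein gene, had 202, 909 and 310 counts in DPCP replicates 1 to 3, against 9, 7 and 6 counts in control replicates 1 to 3. The corresponding levels were 5.83, 24.8 and 9.98 CPM in DPCP skin and 0.305, 0.233 and 0.179 CPM in control skin. Its log2 fold change was 5.82 ± 0.65 (SE, n = 3 each; edgeR adjusted p = 0.000216), and 5.03 without DPCP replicate 2.

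Cxcl1, known as KC or Gro-alpha, had the highest control counts of the ligands and the smallest fold change of the 5. It had 228, 748 and 440 counts in DPCP replicates 1 to 3, against 26, 20 and 42 counts in control replicates 1 to 3. Levels were 6.58, 20.4 and 14.2 CPM in DPCP skin and 0.882, 0.666 and 1.25 CPM in control skin. The log2 fold change was 3.86 ± 0.44 (SE, n = 3 each; edgeR adjusted p = 0.000249).

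Cxcr2, the receptor, was readily measured in both groups. It had 1430, 3815 and 1892 counts in DPCP replicates 1 to 3, against 204, 100 and 306 counts in control replicates 1 to 3. Its level was 41.2, 104 and 60.9 CPM in DPCP skin, against 6.92, 3.33 and 9.14 CPM in control skin, and the lowest DPCP library was 4.51 times the highest control library. The log2 fold change of 3.41 ± 0.42 (SE, n = 3 each; edgeR adjusted p = 0.000373) was the smallest of the 6 genes. In these bulk samples, more cells carrying a transcript and more transcript per cell cannot be told apart, for Cxcr2 as for the ligands.

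To compare levels between genes, CPM was divided by gene length, and spliced lengths were taken up after the data were seen. With the spliced length of the longest protein-coding transcript (GENCODE M21), Cxcl2 stood at 65.5 ± 44.7 CPM per kb in DPCP skin (SD, n = 3) and Cxcl5 at 39.3 ± 25.8. Cxcr2 followed at 22.6 ± 10.5, Cxcl3 at 21.7 ± 15.5, Cxcl1 at 14.4 ± 7.26 and Ppbp at 12.5 ± 9.21 CPM per kb. These SDs are wide because each gene was 2.53 to 4.75 times higher in DPCP replicate 2 than in DPCP replicate 1. All 6 genes were highest in that library, so the order was also read within libraries. Cxcl2 was highest, Cxcl5 next and Cxcl3 above Cxcl1 in each of the 3 DPCP libraries, while Cxcr2 and Cxcl3, and Cxcl1 and Ppbp, changed places between libraries. With the exon lengths of the deposited table Cxcl2 was still highest in each. Cxcl1 was then above Cxcl3 in DPCP replicates 1 (3.51 against 2.86 CPM per kb) and 3 (7.55 against 4.63). Cxcr2 was above Cxcl5 in DPCP replicate 1 (13.5 against 11.7). In control skin Cxcr2 was at 2.12 ± 0.963 CPM per kb (SD, n = 3), Cxcl1 at 0.979 ± 0.31 and Ppbp at 0.221 ± 0.0584. Cxcl2 at 0.136 ± 0.0867, Cxcl3 at 0.115 ± 0.0423 and Cxcl5 at 0.0667 ± 0.0593 CPM per kb had lower means. Cxcr2 was highest and Cxcl1 next in each control library, while the other 4 genes changed places between libraries. Cxcl2 had the highest mean level per length of the 6 genes in DPCP skin, and the receptor had it in control skin.

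The make-up of the ligand transcripts differed between the groups. The ligands together had 3458, 14764 and 6096 counts in DPCP replicates 1 to 3, against 43, 41 and 71 counts in control replicates 1 to 3. With the exon lengths of the deposited table, Cxcl2 made up 50.1% ± 3.84 of the summed ligand CPM per kb in DPCP skin, against 13.3% ± 8.74 in control skin (SD, n = 3 each). Cxcl5 made up 27.6% ± 4.79 in DPCP skin, against 5.56% ± 4.82 in control skin. Cxcl1 took the opposite course, with 6.62% ± 1.15 in DPCP skin, against 52.7% ± 6.14 in control skin. Ppbp accounted for 10.4% ± 1.04 in DPCP skin and 24.8% ± 9.26 in control skin, and Cxcl3 for 5.29% ± 0.578 in DPCP skin and 3.63% ± 1.37 in control skin. The groups did not overlap for Cxcl1, Cxcl2, Cxcl5 and Ppbp, and did for Cxcl3. The exon length in the table spans the whole locus, introns included, for Cxcl1, Cxcl2 and Cxcl3, because the annotation lists transcripts with a retained intron. With spliced lengths, an alternative added after the data were seen, the DPCP share was 42.8% for Cxcl2, 25.2% for Cxcl5, 14% for Cxcl3, 10% for Cxcl1 and 7.98% for Ppbp. Control shares were then 9.07% for Cxcl2, 4.02% for Cxcl5, 7.69% for Cxcl3, 63.8% for Cxcl1 and 15.4% for Ppbp. On that scale the groups overlapped for Ppbp and no longer for Cxcl3, and the directions for Cxcl1, Cxcl2 and Cxcl5 were as before, without overlap.

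**Figure D2:**
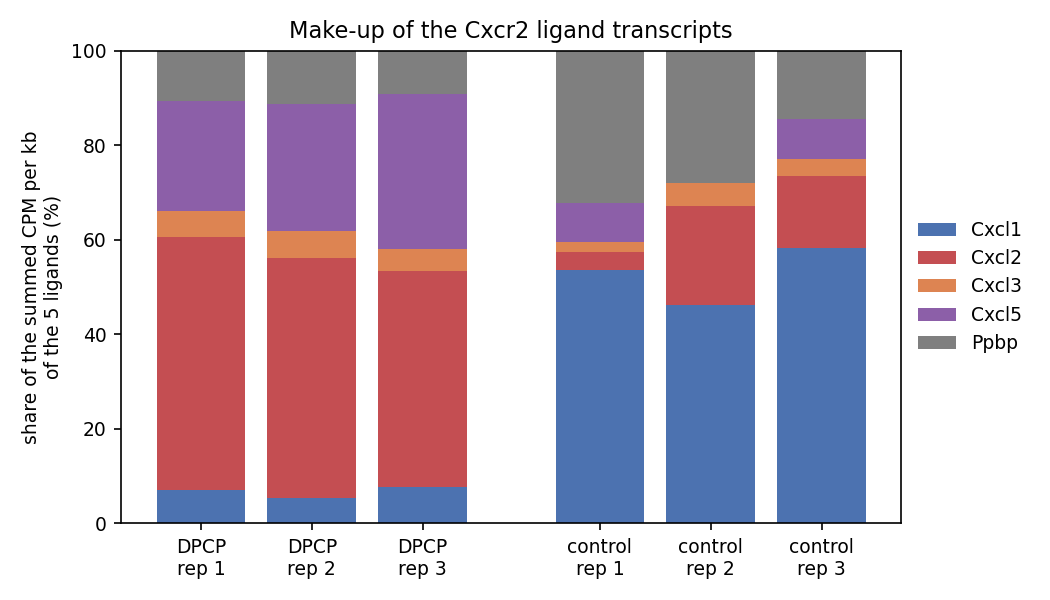
Share of each ligand gene in the summed CPM per kb of the 5 ligands, in percent, with 1 bar per library and the exon lengths of the deposited table. Cxcl2 and Cxcl5 fill most of each DPCP bar, and Cxcl1 takes 46.2% to 58.3% of the control bars.

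The same shift appeared in ratios of counts within a library, which do not depend on scaling between libraries. The log2 ratio of Cxcl2 to Cxcl1 was 3.08, 3.40 and 2.74 in DPCP replicates 1 to 3, against −3.41, −0.97 and −1.77 in control replicates 1 to 3. That of Cxcl5 to Cxcl1 averaged 2.05 ± 0.31 in DPCP skin and −3.54 ± 1.57 in control skin (SD, n = 3 each). That of Cxcl3 to Cxcl1 averaged 0.59 ± 0.38 in DPCP skin and −2.85 ± 0.62 in control skin. Each of these ratios was apart without overlap, and each had an exact permutation p of 0.1 (2-sided; 0.125 adjusted over 5 ratios). With 3 samples against 3, 0.1 is the smallest p this test allows, so no ratio could pass 0.05. The control ratios rest on 0 to 42 counts a gene.

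**Figure D3:**
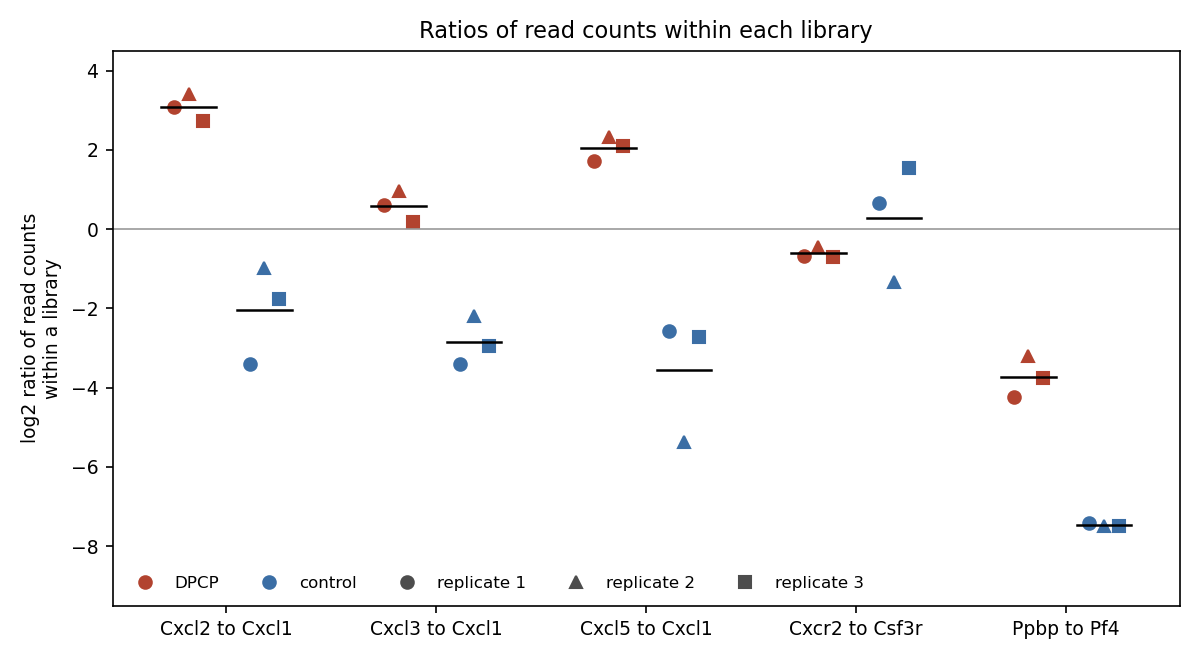
Log2 ratio of read counts within each library, with 0.5 added to each count, for the 5 pairs of genes compared. Points are libraries and bars are group means; the groups are apart for the ratios to Cxcl1 and for Ppbp to Pf4, and overlap for Cxcr2 to Csf3r.

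Of the 4 ligand promoters shown above, those of Cxcl1, Cxcl2 and Cxcl3 share a feature. The 11-base run GGGAATTTCCC lies 71 bases upstream of the RefSeq start in Cxcl1, 97 bases upstream in Cxcl2 and 73 bases upstream in Cxcl3. These distances depend on the start taken. The gene model used for the counts starts Cxcl2 at 90903871, upstream of its RefSeq start and so nearer to the run. It holds a match to the NF-kB core, searched as GGGANNTTC on both strands, on either strand, and matches to the wider kappaB consensus that overlap these. The same run was found in 14 of the 32851 promoters of the table (0.043%), and it was singled out after its matches in these genes were seen. Of the 7 tested genes that carry it, 4 were called higher in DPCP skin (Cxcl1, Cxcl2, Cxcl3 and Hpn) and 2 lower (Kremen2 and Zfp84), and Il16 was not called. The NF-kB core was found in 3.94% of all promoters, in 3.74% of those of tested genes and in 4.07% of those of genes called higher. For the wider consensus these shares were 8.46%, 10.4% and 11%. In the Cxcr2 promoter the core lay on the minus strand, 157 bases upstream, and the Ppbp promoter held no match to these letters in this window.

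Exact matches to other motifs were less shared. The TATA box, searched as TATAAA on the strand of the gene, lay 30 bases upstream of the start in Cxcl3 and Ppbp. It lay again 8 bases upstream in Ppbp, and was found in 8.32% of all promoters and 5.11% of those of tested genes. The Cxcl1 and Cxcl2 promoters hold CATAAAAGG and that of Cxcl3 holds TATAAAAGG, so the search for exact letters left Cxcl1 and Cxcl2 out. The AP-1 motif, searched as TGANTCA on both strands, lay in the Ppbp promoter 204 bases upstream. It was found in 7.81% of all promoters and 6.05% of those of tested genes. The C/EBP motif, searched as TTGCNNAA on both strands, had no match in the 5 promoters. It was found in 10.8% of all promoters and 9.28% of those of tested genes. A match is a run of letters, and binding was not measured.

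The transcripts of Cxcl1, Cxcl2, Cxcl3 and Cxcl5, but not of Ppbp, also share a feature of their 3′ ends. The pentamer ATTTA, the core of AU-rich elements through which short-lived messenger RNAs are degraded, occurred 7 times in the 592 bases of the 3′ untranslated region of Cxcl1, 11 times in 1494 bases of Cxcl2 and 5 times in 645 bases of Cxcl3. It occurred 5 times in 1111 bases of Cxcl5, 1 time in 656 bases of Ppbp and 2 times in 1818 bases of Cxcr2. Per kb these are 11.8, 7.36, 7.75 and 4.5 for Cxcl1, Cxcl2, Cxcl3 and Cxcl5, against a median of 1.49 over 18078 protein-coding genes with at least 200 such bases. Of those genes 99.7%, 98%, 98.4% and 91.1% had a lower density than Cxcl1, Cxcl2, Cxcl3 and Cxcl5. Ppbp, at 1.52 per kb, and Cxcr2, at 1.1, lay near the middle. The longer form TATTTAT occurred in the 4 ligands other than Ppbp, 1 to 7 times, and in 31.5% of the 18078 genes.

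Neighbours of the ligand genes differed in direction and size. Within 250 kb of the outer ligand genes the table held 9 other protein-coding genes, of which 6 were tested, 3 were higher, 2 were lower and 1 was not called. Pf4, which encodes platelet factor 4 and lies between Ppbp and Cxcl3, had 110.0, 226 and 135 CPM in DPCP replicates 1 to 3, against 55.3, 45.3 and 34.8 CPM in control replicates 1 to 3. Its log2 fold change was 1.80 ± 0.27 (SE, n = 3 each; edgeR adjusted p = 0.001), smaller than those of both genes beside it. Cxcl15, a chemokine gene known from mouse lung, lies between Cxcl3 and Cxcl1 and had 0 counts in all 6 libraries. The EGF receptor ligand genes lie to the right. Epgn (epigen) and Areg (amphiregulin) rose by 3.74 ± 0.18 and 3.66 ± 0.20 on the log2 scale (SE; edgeR adjusted p = 5.28e-06 and 8.11e-06), while Ereg (epiregulin) between them fell by 0.97 (edgeR adjusted p = 6.80e-05). Mthfd2l, a mitochondrial folate enzyme gene beside Cxcl2, was at 8.59 ± 0.218 CPM in DPCP skin and 8.54 ± 0.605 CPM in control skin (SD, n = 3 each). On the left, Rassf6 had a log2 fold change of −0.71 and lost its call when any 1 library other than DPCP replicate 1 was left out, and Afm and 5830473C10Rik had too few counts to test.

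**Figure D4:**
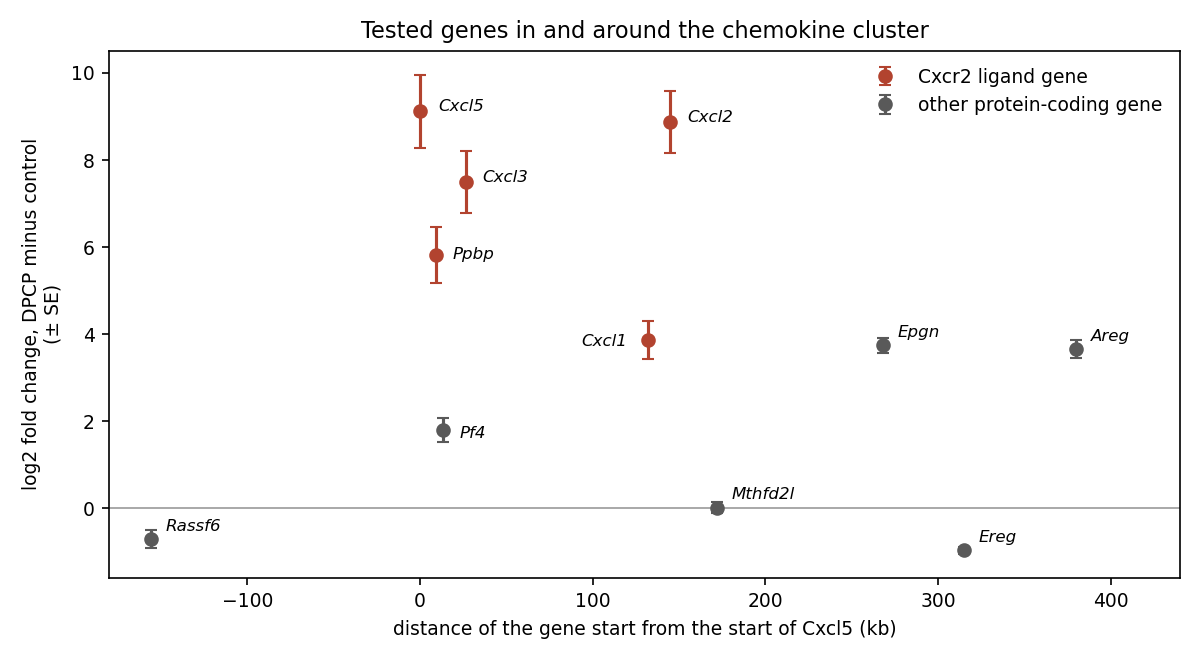
Log2 fold change, DPCP minus control, with SE, of the 11 tested protein-coding genes in and around the ligand cluster, by distance of the gene start from the start of Cxcl5 in kb. The 5 ligand genes lie above Pf4 and Mthfd2l, which sit among and beside them; Epgn and Areg lie at the level of Cxcl1.

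The DPCP libraries differed among themselves in these genes. All 6 genes were highest in DPCP replicate 2 and lowest in DPCP replicate 1, with replicate 2 at 2.53 (Cxcr2) to 4.75 (Cxcl5) times replicate 1 and a median of 3.92. Over the 4163 genes called higher the median of that ratio was 1.09, with 45.6% highest in replicate 2 and 57.8% lowest in replicate 1. DPCP replicate 1 also lay nearest to control on the first principal component, at 49.2 against 73.8 and 71.9 for replicates 2 and 3, with control replicates at −64.5 to −65.3. The tested neutrophil markers were highest in replicate 2 as well, 18 of 18, with a median ratio of 3.03 to replicate 1. Markers of other cells were often highest in replicate 2 too, with smaller median ratios. These were 9 of 10 macrophage and monocyte markers (median ratio 1.23), 4 of 5 red blood cell markers (1.39) and 3 of 4 platelet markers (1.4). Fibroblast markers had 5 of 8 highest there (1.09), endothelial markers 4 of 8 (1.2) and keratinocyte markers 1 of 10 (0.962). Of all tested genes 32.8% were highest in replicate 2. Without replicate 2 all 6 genes were still called higher, with log2 fold changes of 2.98 for Cxcr2, 3.46 for Cxcl1 and 8.54 for Cxcl5 besides the values given above for the other 3. The part of neutrophil content or any other difference between libraries in this spread was not tested.

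Neutrophil marker genes were higher in DPCP skin too. Of 23 markers 18 were tested, 16 were called higher and 2 lower, with a median log2 fold change of 4.51. Their summed level was 816 to 2140.4 CPM in DPCP libraries and 255 to 307 CPM in control libraries. Most of the control sum came from the 2 markers called lower. In control replicates 1 to 3, Il1r2 was at 133, 107 and 112 CPM and Wfdc21 at 119, 88.6 and 124 CPM. S100a8 and S100a9, which encode the calprotectin subunits, rose by 7.09 ± 0.47 and 6.18 ± 0.51 on the log2 scale (SE, n = 3 each; edgeR adjusted p = 2.07e-05 and 5.25e-05); stressed keratinocytes also make both. Lrg1 rose by 3.38 ± 0.22 (edgeR adjusted p = 1.96e-05), while Wfdc21 fell by 1.66 (edgeR adjusted p = 0.000105) and Il1r2, a decoy receptor of interleukin-1, by 0.68, a call lost without DPCP replicate 1, DPCP replicate 3 or control replicate 1. Ly6g, the classical mouse neutrophil surface marker, had 4, 47 and 9 counts in DPCP replicates 1 to 3, against 0, 0 and 1 count in control replicates 1 to 3. It was too low to test. Its share of the library was 51.7 times higher in DPCP skin (95% interval 8.94 to 2077, counting error only, each count taken as independent). Retnlg rose by 2.41 ± 0.60 (SE; edgeR adjusted p = 0.0108), and by 1.5 without DPCP replicate 2. Granule protein genes differed. Camp, which encodes cathelicidin, had 165 counts over the DPCP libraries and 16 over the control libraries and rose by 3.18 ± 0.53 (SE; edgeR adjusted p = 0.00157). Mpo, which encodes myeloperoxidase, had 4 counts over the DPCP libraries and 5 over the control libraries, and Ngp had 7 over the DPCP libraries and 0 over the control libraries; both were too low to test.

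Csf3r, the receptor of granulocyte colony-stimulating factor, marks neutrophils as Cxcr2 does, and the ratio of the pair was compared within libraries. The log2 ratio of Cxcr2 to Csf3r was −0.69, −0.45 and −0.70 in DPCP replicates 1 to 3, against 0.65, −1.33 and 1.53 in control replicates 1 to 3. The groups overlapped (difference −0.90, exact permutation p = 0.4, 2-sided, 0.4 adjusted over 5 ratios), and the spread was 0.15 (SD) in DPCP skin and 1.46 in control skin. The difference hung on single control libraries: it was −1.70, without overlap, when control replicate 2 was left out, and −0.28 when control replicate 3 was. Csf3r was highest in control replicate 2 and lowest in control replicate 3, the reverse of Cxcr2, S100a8 and S100a9. That order was not particular to neutrophil genes. Krt10, a keratinocyte marker, was also highest in control replicate 3 and lowest in control replicate 2. The neutrophil markers had no common order in control skin. Retnlg, at 2.78, 1.87 and 0.837 CPM, and Cd177, at 0.339, 0.2 and 0.0896 CPM, fell from control replicate 1 to 3. Csf3r itself was at 66.8, 142 and 99.3 CPM in DPCP skin and at 4.41, 8.4 and 3.17 CPM in control skin, and rose by 4.28 ± 0.39 on the log2 scale (SE, n = 3 each; edgeR adjusted p = 8.85e-05).

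Platelet and megakaryocyte markers were set beside Ppbp, since platelets carry its product. Of 11 markers 4 were tested, 2 were called higher (Pf4 and Itga2b) and none lower, with a median log2 fold change of 0.86. Their summed level, most of it Pf4, was 124 to 239.9 CPM in DPCP libraries and 39.9 to 62.1 CPM in control libraries. Itga2b, the platelet integrin alpha-IIb gene, rose by 1.11 ± 0.25 (SE, n = 3 each; edgeR adjusted p = 0.00719). Gp1ba, a subunit of the platelet receptor for von Willebrand factor, was at 0.964 ± 0.0694 CPM in DPCP skin and 1.16 ± 0.107 CPM in control skin (SD, n = 3 each; edgeR adjusted p = 0.407). The log2 ratio of Ppbp to Pf4 was −4.24, −3.19 and −3.75 in DPCP replicates 1 to 3, against −7.42, −7.50 and −7.49 in control replicates 1 to 3. The difference of 3.74 had an exact permutation p of 0.1 (2-sided, 0.125 adjusted over 5 ratios), the smallest this test allows. The control ratios rest on 9, 7 and 6 counts of Ppbp, so their closeness to each other says little about their spread. Which cells carried the Pf4 and Ppbp transcripts was not tested. Red blood cell markers, a sign of blood in the tissue, had 0 of 5 tested genes called by edgeR, with a median log2 fold change of −0.36.

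Genes for cytokines known to induce the ligands, and for their receptors, rose in part. Of 20 genes for inducing cytokines and their receptors 17 were tested, 11 were called higher and 1 lower, with a median log2 fold change of 0.55. Most of those called higher encode receptors or an adaptor and not cytokines. Il1b, the gene of interleukin-1 beta, had 99.9, 385 and 154 CPM in DPCP replicates 1 to 3, against 3.53, 1.77 and 1.64 CPM in control replicates 1 to 3, and was highest in DPCP replicate 2 as the ligands were. Its log2 fold change was 6.53 ± 0.60 (SE, n = 3 each; edgeR adjusted p = 8.45e-05), and 5.79 without DPCP replicate 2. Il33, an alarmin of the same cytokine family, rose by 1.43 ± 0.12 (edgeR adjusted p = 4.96e-05), and Myd88, the adaptor of interleukin-1 and Toll-like receptors, by 1.17 ± 0.10 (edgeR adjusted p = 7.25e-05). Il36a fell by 1.25 (edgeR adjusted p = 0.00123). Il17a, Il17c and Il17f were too low to test, with 0 to 10 counts over the DPCP libraries and 6 to 11 over the control libraries. Without DPCP replicate 2, 9 of the 17 genes were called higher.

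No gene of NF-kB or of messenger RNA stability on these lists reached the fold change of Cxcl1. Of 11 NF-kB factors and feedback genes 4 were called higher and 2 lower, with a median log2 fold change of 0.18. Bcl3, an atypical inhibitor protein that acts in the nucleus, rose by 1.85 ± 0.16 (SE; edgeR adjusted p = 7.40e-05), Nfkbie by 1.02 and Nfkb2, which encodes the p100 precursor, by 0.70. Rel, which encodes c-Rel, fell by 0.69 (edgeR adjusted p = 0.00074). Of 7 genes that act on the stability of such messenger RNAs, 4 were called higher and 1 lower. Zfp36, the gene of tristetraprolin that binds AU-rich elements, rose by 0.76 ± 0.14 (edgeR adjusted p = 0.00261), Arid5a, which stabilizes inflammatory transcripts, by 0.82 and Khsrp, another decay factor, by 0.40. Zc3h12a, which encodes the ribonuclease Regnase-1, fell by 0.80 (edgeR adjusted p = 0.000917).

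**Figure D5:**
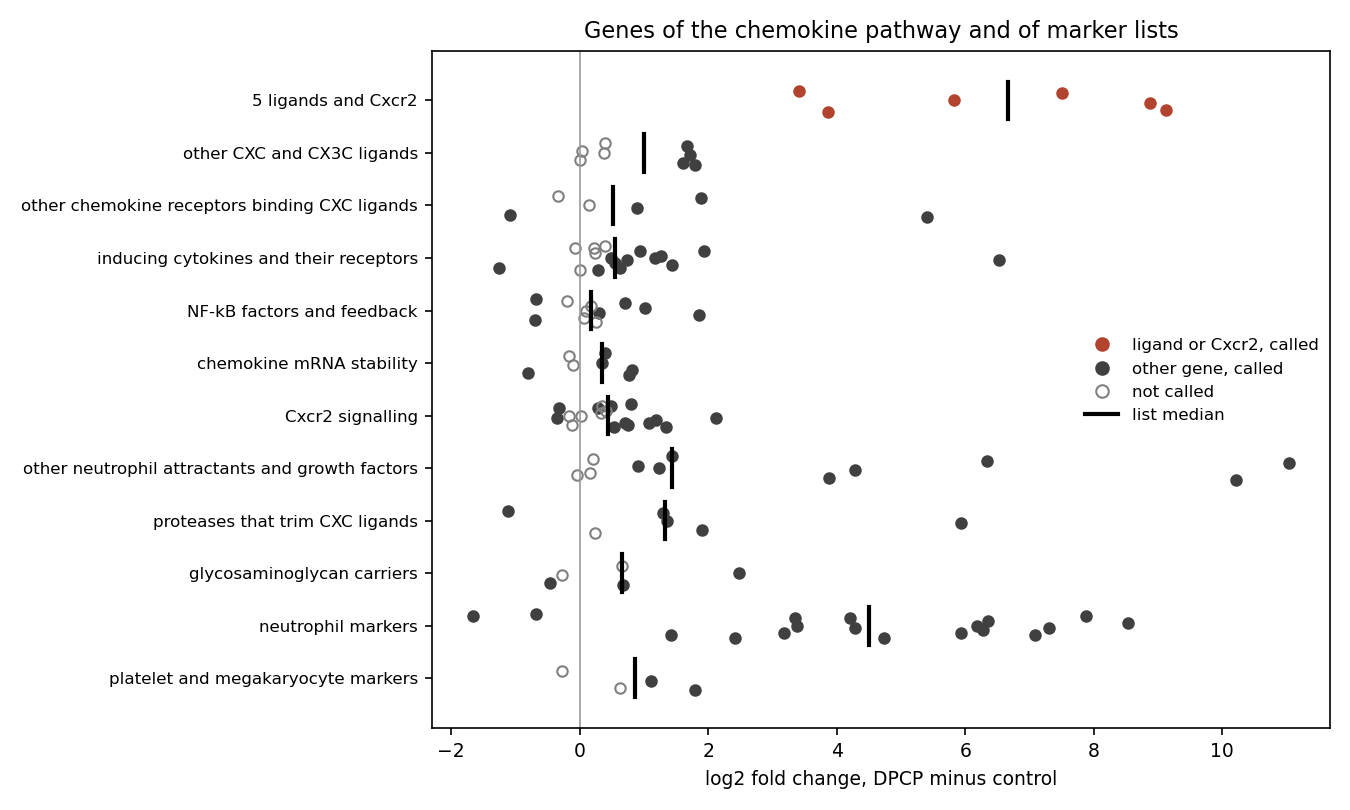
Log2 fold change, DPCP minus control, of each tested gene of the ligands and Cxcr2 and of 11 other gene lists; filled points were called by edgeR, open points were not, and bars are list medians. The medians are 6.66 for the 5 ligands and Cxcr2, 4.51 for neutrophil markers and 1.44 or lower for the other lists.

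Downstream of Cxcr2, 10 of 18 signalling genes were called higher and 2 lower, with a median log2 fold change of 0.45. The examples are genes of white blood cells: Fgr, a Src family kinase, rose by 2.12 ± 0.28 (SE; edgeR adjusted p = 0.000531), Vav1, an exchange factor for Rac, by 1.19 and Pik3r5, a regulatory subunit of phosphoinositide 3-kinase gamma, by 1.08. Arrb1, which encodes a beta-arrestin, fell by 0.32 (edgeR adjusted p = 0.00854). Without DPCP replicate 2, 8 of the 18 were called higher.

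No other CXC ligand reached the fold change of Cxcl1. Of 11 other CXC and CX3C ligands 8 were tested; 4 were called higher and none lower, and their median log2 fold change was 1.0. Besides Pf4 they included Cxcl10, an attractant of T cells, with a rise of 1.67 ± 0.30 (SE; edgeR adjusted p = 0.00219), and Cxcl12, the ligand of Cxcr4, with 1.61 ± 0.17 (edgeR adjusted p = 0.000185). Of 6 other tested receptors that bind CXC ligands 3 were called higher and 1 lower. Cxcr1, the nearest relative of Cxcr2, had 156 counts over the DPCP libraries and 3 over the control libraries. Its share was 44.8 times higher in DPCP skin (95% interval 15.1 to 219.8, counting error only, each count taken as independent). Cxcr4 rose by 1.89 ± 0.28 (edgeR adjusted p = 0.000954). Cxcr3 and Cxcr6, receptors of T cells, had log2 fold changes of 0.89 and −1.08, and neither call was firm. That of Cxcr3 was lost without DPCP replicate 2, DPCP replicate 3, control replicate 1 or control replicate 3, and that of Cxcr6 without DPCP replicate 1, DPCP replicate 3, control replicate 1 or control replicate 3.

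A further list held other neutrophil attractants, their receptors and growth factors. Of 11 tested genes of this list 8 were called higher and none lower, with a median log2 fold change of 1.44. Saa3, an acute-phase protein that attracts neutrophils, rose by 11.04 ± 0.39 (SE; edgeR adjusted p = 1.86e-06), and Ltb4r1, the leukotriene B4 receptor, by 1.23 ± 0.11 (edgeR adjusted p = 7.17e-05). Csf3, which encodes granulocyte colony-stimulating factor, had 70, 311 and 98 counts in DPCP replicates 1 to 3, against 0 counts in every control library. With control set at 3 counts over the group, each count taken as independent, it would be 138-fold higher in DPCP skin. Both mates of a pair could add a count, so the true lower limit may be smaller. Of 6 tested proteases that trim CXC ligands 4 were called higher and 1 lower: Mmp8, the neutrophil collagenase, rose by 5.93 ± 0.74 (edgeR adjusted p = 0.000386), Prtn3 by 1.36 and Mmp9 by 1.30, while Dpp4 fell by 1.12. Mmp8 moved to 5.28 without DPCP replicate 2 and to 6.93 without control replicate 2. Of 5 carriers of the glycosaminoglycans that hold chemokines on surfaces, or proteins that compete for them, Tnfaip6 rose by 2.48 ± 0.29 (edgeR adjusted p = 0.000272) and Sdc1 by 0.68, and Sdc4 fell by 0.46.

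Endothelial selectins, on which neutrophils roll before chemokines arrest them, were read from the endothelial list, of which 6 of 8 genes were called higher and 1 lower. Selp rose by 3.19 ± 0.31 (SE; edgeR adjusted p = 0.00012) and Sele by 2.51 ± 0.19 (edgeR adjusted p = 3.52e-05), and Pecam1, a general endothelial marker, by 1.25 ± 0.12. Tek fell by 0.40 (edgeR adjusted p = 0.0168), a call lost without DPCP replicate 3 or control replicate 2. The other lists checked the tissue. Keratinocyte markers summed to 30330.4 to 35006 CPM in DPCP libraries and 22214 to 28694 CPM in control libraries, with 4 of 10 called higher and 3 lower. Of 10 macrophage and monocyte markers 5 were called higher and none lower, with sums of 2975 to 5075 CPM in DPCP libraries and 1831 to 3111 CPM in control libraries. Fibroblast markers had 2 of 8 called higher and 1 lower, and mast cell markers 4 of 6 higher and 1 lower. T cell markers had 1 of 7 higher and 4 lower, and 6 of 6 skeletal muscle markers were lower. Their part in the ligand levels was not tested.

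Finally, the genes most like the ligands across the 6 libraries were ranked among 12416 genes with a mean of at least 5 CPM. For the mean log2 CPM of the 5 ligands these included Mrfap1 (Pearson r = 0.9997), Haus7 (0.9995) and Pdia3 (0.9993), and 202 genes had an r over 0.99. For Cxcr2 they were Eif2s1 (r = 0.9985), Eif4a-ps4 (annotated as a processed pseudogene, so reads may belong to its parent gene), Ptbp3, Clec4d and Rab8a (0.9975), with 67 genes over 0.99. The difference between the groups makes up most of each r, so these are descriptions over 6 libraries and carry no test. Clec4d, a C-type lectin receptor gene on the neutrophil list, is the only one of these 8 genes with a fold change above that of Cxcl1: it rose by 6.28 ± 0.69 (SE; edgeR adjusted p = 0.000208), and by 5.53 without DPCP replicate 2 and 7.09 without control replicate 3. The other 7 rose by 0.35 to 0.80.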

How the data were processed

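RNA preserved in RNAlater and isolated with TRIzol was made into polyA libraries with a TruSeq Stranded mRNA kit and read as 150-base pairs on a NovaSeq instrument, per the labels' protocols. The authors deposited unnormalized counts of reads in exons, from featureCounts 1.6.2 with Ensembl release 102 gene models on GRCm38 (per the file headers). The command names no option for strand, read pairs, multiple alignments or overlapping genes, so mates were counted singly on either strand and reads over several genes were left out. Both mates of a pair could then add a count. Intervals given as counting error are therefore too narrow, and limits set at 3 counts are too low. The fold difference of Csf3, which rests on such a limit, is too high as a lower bound. Build mm10 and the tools HISAT2 2.2.1, Trimmomatic 0.36, DESeq2 1.34.0 and StringTie 2.2.1 are listed too, per the submitters' processing notes. The 6 genes share no exon base with another gene. Of the genes named, some share 0.573% to 18.1% and are less certain. These are Nfkb2, Il16, Mpo, Selp, Myd88, Il1a, Kremen2, Prtn3, 5830473C10Rik, Krt10, Bcl3, Cxcl10, Fpr2, Dpp4, Zfp36, Afm, Ereg, Ptbp3, Khsrp, Il1b and Pdia3.

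Library totals were 34708959, 38846787 and 31609336 counts in DPCP replicates 1 to 3 and 28346992, 28855768 and 33468828 in control replicates 1 to 3, so a count of 0 allows 0.0772 to 0.106 CPM; no pair of libraries agreed within counting noise. The counts were tested with edgeR 4.0.16 (R 4.3.3; glmQLFit and glmQLFTest, TMM factors of 0.942 to 1.04, filterByExpr), a procedure tested on simulated data, and calls are at an adjusted p under 0.05. Standard errors are the unshrunken log2 fold change over the square root of F. Ratios were tested with exact permutation tests (SciPy 1.17.1). The 6 genes and the gene lists were chosen with earlier results of these data known. Besides the 6 genes, each list gives up to 3 called genes with the smallest p in its main direction and 1 in the other, plus genes fixed by name, chromosome 5 neighbours and the genes most like the ligands or Cxcr2, of which some are not reported here. Alternatives were upper-quartile and RLE factors, library totals, DESeq2 1.42.0, other filters, prior counts and pseudocounts, leaving out each library, and a block for the replicate number.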

Additional observations from a re-analysis of the deposited data

How the results depend on the processing

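All 6 genes were called higher under each of the 14 alternatives run for each of them, with log2 fold changes of 3.46 to 4.2 for Cxcl1, 8.17 to 9.22 for Cxcl2, 6.74 to 7.85 for Cxcl3, 8.52 to 9.77 for Cxcl5, 5.03 to 6.18 for Ppbp and 2.98 to 3.75 for Cxcr2. The adjusted p reached 0.00253 at most, for Cxcr2 without control replicate 1. The count of called genes was 8417 and ran between 7016 without DPCP replicate 2 and 8617 with no count filter; leaving out 1 library gave 7016 to 8074, DESeq2 gave 8272, and library totals alone gave 3517 higher and 4858 lower. Differences in ratios ran between 4.44 and 5.66 for Cxcl2 to Cxcl1, 3.03 and 3.76 for Cxcl3 to Cxcl1, 4.69 and 6.42 for Cxcl5 to Cxcl1, −1.70 and −0.28 for Cxcr2 to Csf3r, and 3.48 and 4.00 for Ppbp to Pf4. Leaving out control replicate 2 gave the lowest values for Cxcl5 to Cxcl1 with 1 library left out (4.69) and for Cxcr2 to Csf3r (−1.70).

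The labels give both groups replicate numbers 1 to 3, but same-numbered samples deviated together little (r = 0.0455, 0.0265 and 0.112). Not every sample correlated best with its own number, though the r of 0.112, for replicate 3, was the highest of any pair. On the second principal component (6.85% of the variance) replicate 3 lay at −28.6 in DPCP skin and −24.4 in control skin. The other libraries lay at 6.25 to 21.7. An effect shared by the replicate 3 libraries was not tested. With the replicate block, 8501 genes were called (4260 higher), and the log2 fold changes were 3.77 for Cxcl1, 8.84 for Cxcl2, 7.44 for Cxcl3, 9.08 for Cxcl5, 5.67 for Ppbp and 3.35 for Cxcr2. Low control counts (10 to 24 over the group for Cxcl2, Cxcl3, Cxcl5 and Ppbp) limit the precision of those fold changes.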

Other observations

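Some genes of the lists that the naming rule left out are given here, chosen after their values were seen. Of the interleukin-1 pair, Il1a was at 26.7 ± 5.63 CPM in DPCP skin and 26.4 ± 6.23 CPM in control skin (SD, n = 3 each; edgeR adjusted p = 0.958), beside the rise of Il1b. Tnf, which encodes tumor necrosis factor, was at 13.4 ± 5.35 CPM in DPCP skin and 3.5 ± 0.688 CPM in control skin and rose by 1.94 ± 0.29 on the log2 scale (SE; edgeR adjusted p = 0.00101). Il1r1, the signalling receptor of interleukin-1, rose by 1.27. Genes for receptors of formyl peptides, another class of neutrophil attractant, rose too: Fpr1 by 6.34 ± 0.91 (SE; edgeR adjusted p = 0.000764) and Fpr2 by 3.88 ± 0.51 (edgeR adjusted p = 0.000501). Their values fell short of this without DPCP replicate 2, at 5.30 for Fpr1 and 3.26 for Fpr2; Fpr1 was at 7.09 when control replicate 1 was left out.

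Nfkbia, Tnfaip3 and Nfkbiz, feedback genes of NF-kB, were not called higher in the fit of all 6 libraries. Nfkbia, which encodes the inhibitor IkB-alpha, was at 106 ± 24.1 CPM in DPCP skin and 121 ± 6.16 CPM in control skin (SD, n = 3 each; edgeR adjusted p = 0.302), and was called lower, at −0.40, without DPCP replicate 2. Tnfaip3, which encodes the deubiquitinase A20, was at 29.8 ± 5.54 CPM in DPCP skin and 26.3 ± 0.478 CPM in control skin (edgeR adjusted p = 0.298), and was called higher, at 0.33, without DPCP replicate 3. Nfkbiz, which encodes IkB-zeta, a nuclear protein needed for many interleukin-17 responses of keratinocytes, was at 52.1 ± 7 CPM in DPCP skin and 83.7 ± 12.1 CPM in control skin and fell by 0.68 on the log2 scale (edgeR adjusted p = 0.0033).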
